A study of Mus musculus with 27 samples.

Results

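The genes described here are 10 genes of the matricellular and tendon-like extracellular matrix, Fn1, Tnc, Postn, Sparc, Thbs1, Thbs2, Thbs4, Comp, Tnmd and Scx. They were chosen by name and read from the rows with those gene names among the 54532 genes of the expression table, and all 10 were found and passed the filter on low values. Matricellular proteins are secreted into the matrix, where they act mainly on cell adhesion and signalling and less as load-bearing fibres, and many of them are made during repair and fall again when a wound closes. Tenascin-C (Tnc), periostin (Postn), SPARC and the thrombospondins are of this kind, while fibronectin (Fn1) forms the provisional matrix on which they assemble. Scleraxis (Scx) is a transcription factor of the tendon lineage, tenomodulin (Tnmd) is a membrane protein of mature tendon cells, and Comp and Thbs4 are pentameric thrombospondins that are abundant in tendon and at the muscle-tendon border.

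The samples were tibialis anterior (TA) muscles of 8-week-old male C57BL/6 mice. Volumetric muscle loss (VML) was made by excising 40% of the muscle, and muscles were taken at 3, 7, 14 and 21 days (5, 6, 6 and 5 samples) and from mice without injury (5 samples). The methods of the study describe an excision on both legs and the public record an excision on 1 leg, so samples may share an animal, and the p-values measure the spread between samples. The RNA came from whole muscle, so fewer cells of a type and less RNA per cell cannot be told apart, and the muscle without injury was not a sham operation as far as the labels say.

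Expression was given as FPKM, fragments per kilobase of gene with a scaling between samples. Its denominators were not the totals of reads but 0.747 to 0.819 of them without injury and 1.14 to 1.48 at day 3. The reads recovered from it totalled 14376395 to 24436763 per sample (median 17398586). The members had 10 (Comp) to 48513 (Sparc) reads in a sample. Muscle fibre markers were high in all samples, but their summed FPKM lay at 57189 to 73488 without injury and at 17643 to 39910 at day 3, and the 7 fibroblast markers lay at 67.6 to 163 without injury and at 515 to 1026 at day 3. Among the fibroblast markers the median of Col1a1 went from 18.9 to 294 FPKM and that of Dcn from 28.2 to 30.1 FPKM. By their whole profile, 9 of the 27 samples lay nearest to another group than their own. These were day 7 replicate 3, nearest to no injury, day 7 replicate 6, nearest to day 21, day 14 replicates 1, 3 and 6 and day 21 replicates 3 and 5. Also among them were day 3 replicate 5, nearest to day 7, and day 7 replicate 5, nearest to day 3. Day 7 replicate 6 had the lowest day 7 values of Fn1, Tnc, Postn, Thbs1, Thbs2 and Thbs4. The 5 macrophage markers summed to 52.1 FPKM in day 3 replicate 5 against 139 to 330 in the other day 3 samples, and to 322 in day 7 replicate 5 against 7.96 to 69.8 in the other day 7 samples. All samples were kept with their labels, and several results that rest on day 3 replicate 5 or day 7 replicate 5 are given without them as well. Others, such as the day 3 fold changes of Thbs1, Comp and Scx, are given only with them.

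Against the muscles without injury, 8 of the 10 members had risen by limma 3 days after VML, and 8, 7 and 1 had risen by days 7, 14 and 21. By limma 0 fell at any time point, and 0 were lower at an unadjusted p under 0.05. The test was limma on log2(FPKM + 1) over 14630 genes with Benjamini-Hochberg adjustment at 0.05. Over all genes tested, 23.4% rose and 19.8% fell at day 3, 15% and 14.4% at day 7, 9.02% and 11.3% at day 14, and 1.74% and 1.69% at day 21. Exact permutation tests of each member alone, two-sided and unadjusted, gave a p under 0.05 for 8, 10, 8 and 6 members at the 4 time points, and the 6 at day 21 were Fn1, Postn, Sparc, Thbs2, Comp and Scx. Of all genes, 49.6%, 41.7%, 34.7% and 19.8% had an unadjusted p under 0.05 by limma in either direction at these time points. The median log2 fold change of the members was 2.24, 1.54, 1.17 and 0.68 at the 4 time points, and that of all genes was at most 0.03. At day 3, every injured sample lay above every sample without injury for 8 members, at day 7 for 6, at day 14 for 5 and at day 21 for 3 (Fn1, Sparc and Comp), where 19.8%, 7.25%, 7.67% and 5.26% of all genes did so. The called counts at days 3 and 7 were the same without day 3 replicate 5 and day 7 replicate 5. When the sample's own total of reads was used in place of the deposited scaling, the median of all genes shifted to 0.40 at day 3 and 0.36 at day 7, and 9 and 10 members were called. With that scaling 6534 genes rose and 618 fell at day 3 (3417 and 2899 with the deposited scaling), 5348 and 424 at day 7 (2189 and 2107), 2275 and 288 at day 14 (1320 and 1649), and 106 and 27 at day 21 (255 and 247).

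**Figure D1:**
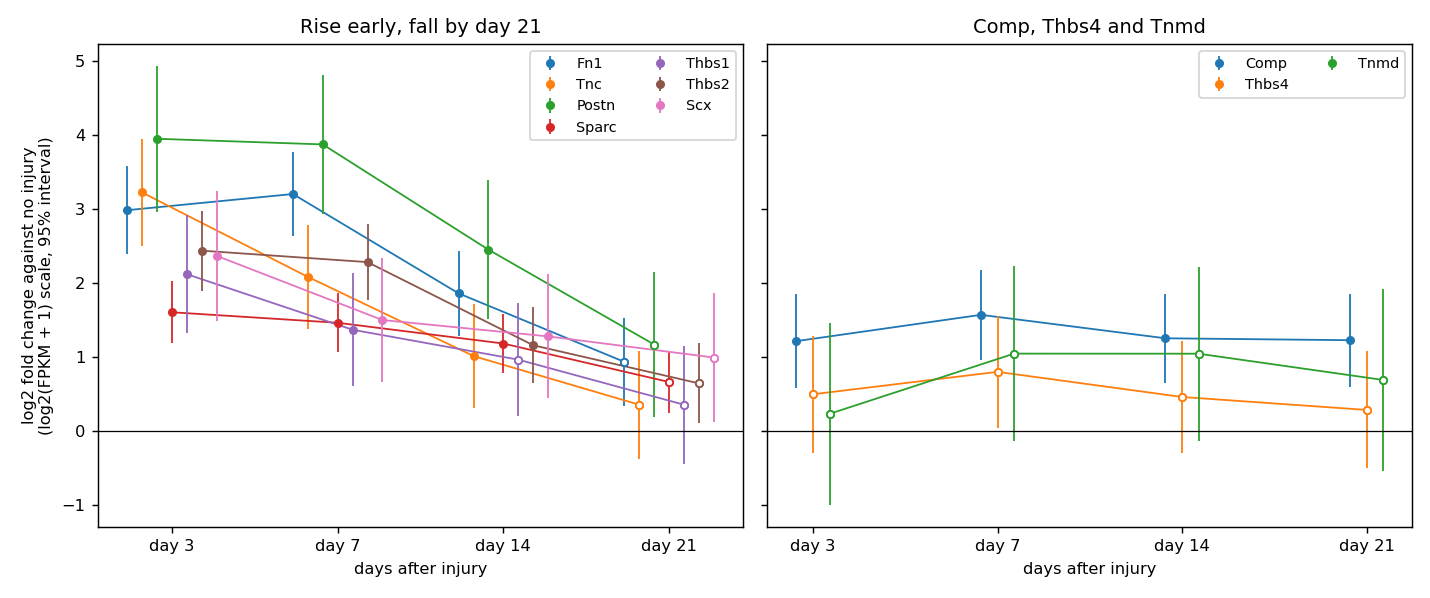
Log2 fold change of each member against the muscles without injury (y axis, on the log2(FPKM + 1) scale, with 95% intervals) at 3, 7, 14 and 21 days (x axis). Filled points passed an adjusted p of 0.05 and open points did not. The 7 genes on the left start at 1.61 to 3.95 at day 3 and end at 0.35 to 1.17 at day 21, while Comp on the right stays between 1.22 and 1.57 and the intervals of Thbs4 and Tnmd are wide.

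Fibronectin, Fn1 (ENSMUSG00000026193, chromosome 1, 71585520 to 71653200, minus strand, GRCm38), was measured at 3.70, 4.57, 1.81, 2.36 and 2.68 FPKM without injury. At day 3 it was at 20.7, 27.4, 30.4, 30.8 and 45.2 FPKM. At day 7 its 6 samples had a lowest value of 20.1, a median of 36.3 and a highest of 52.0 FPKM, and at day 14 they had 6.76, 14.8 and 25.7 FPKM. At day 21 the samples were at 5.05, 7.12, 9.11, 4.62 and 7.28 FPKM, so that no injured sample at any time point overlapped with the muscles without injury. The log2 fold change was 2.99 ± 0.29 (SE) at day 3 and 3.21 ± 0.28 at day 7 (limma, adjusted p = 9.14e-08 and 1.67e-07). It was 1.86 ± 0.28 at day 14 (limma, adjusted p = 0.000179). At day 21 it was 0.93 ± 0.29 with an adjusted p of 0.0713 by limma, and it passed in 6 of 42 alternatives. The exons of Fn1 share 292 bases with Apol7d on the other strand, and the libraries did not keep the strand.

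**Figure D2:**
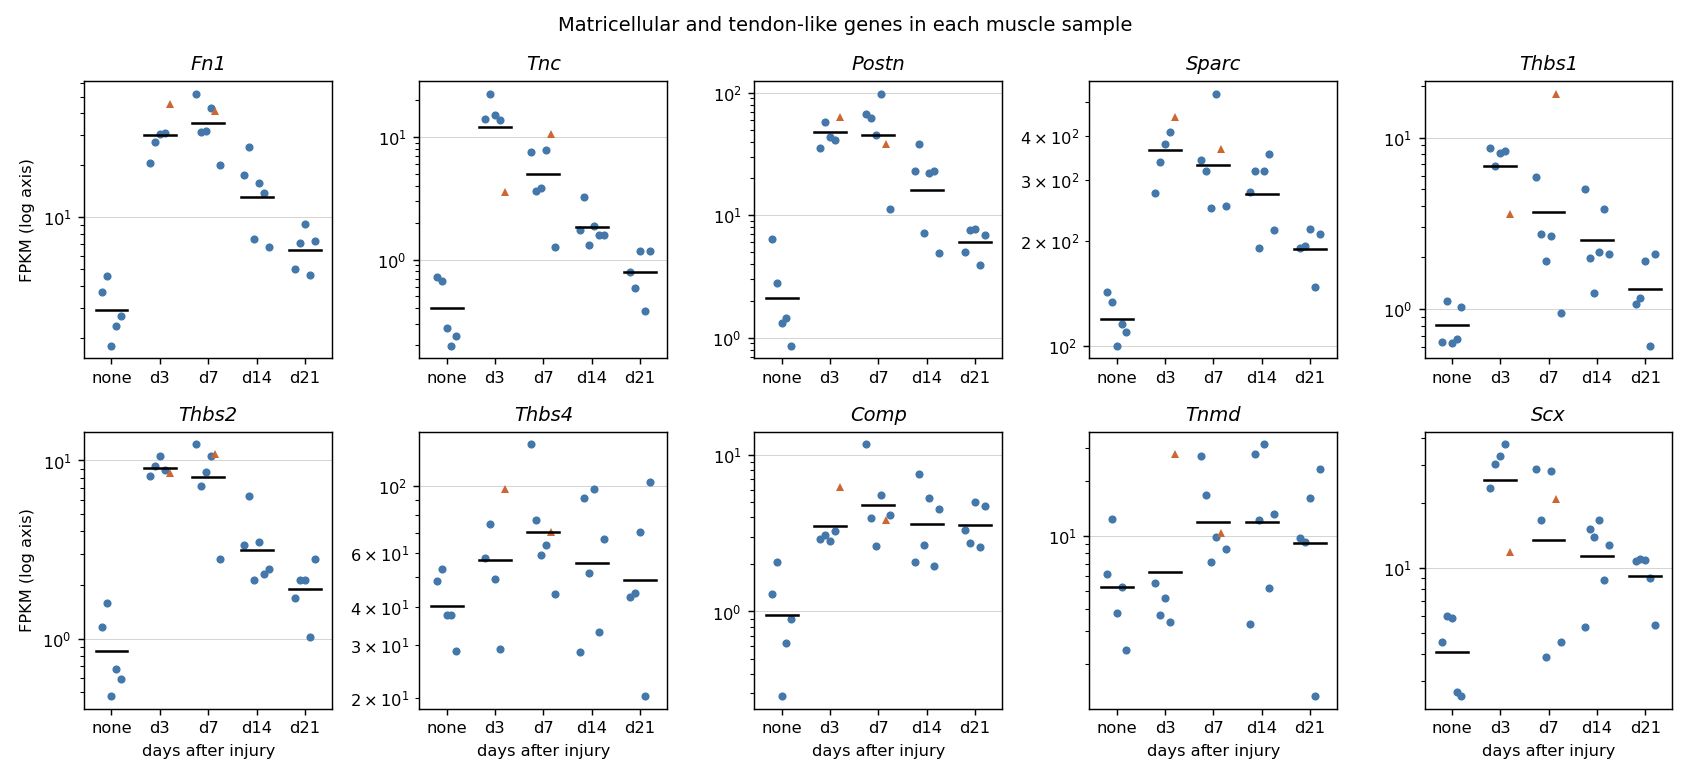
FPKM of each member (y axis, log scale, with a different range in each panel) in each of the 27 samples, by group (x axis: no injury, then days 3, 7, 14 and 21). Bars are means on the log2(FPKM + 1) scale, and triangles are day 3 replicate 5 and day 7 replicate 5. Fn1, Sparc and Comp are above all samples without injury at day 21, and the points of Thbs4 and Tnmd overlap between all groups.

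Periostin, Postn, is secreted by activated fibroblasts and binds collagen and integrins, and on the log2(FPKM + 1) scale it had the largest fold change among the members at days 3, 7 and 14. As a ratio of mean FPKM, its day 3 level was 18.8 times that without injury, and that of Tnc was 32.96 times. Without injury it was at 6.45, 2.79, 1.32, 1.45 and 0.864 FPKM. At day 3 it was at 35.8, 58.2, 44.0, 41.1 and 63.5 FPKM, a log2 fold change of 3.95 ± 0.48 (limma, adjusted p = 1.27e-06). At day 7 its lowest, median and highest values were 11.3, 53.7 and 98.5 FPKM, all above the muscles without injury. At day 14 they were 4.90, 22.4 and 38.4 FPKM, and 5 of 6 samples were above. At day 21 it was at 4.99, 7.60, 7.68, 3.89 and 6.87 FPKM, where 3 of 5 samples were above the highest control value and the log2 fold change of 1.17 ± 0.48 did not pass (limma, adjusted p = 0.171). The highest control value, 6.45 FPKM in replicate 1, was more than that of the other 4 samples without injury.

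SPARC, a collagen-binding glycoprotein, had the highest level among the members in every group, at 121 ± 17.7 FPKM (SD, n = 5) without injury. It rose to 371 ± 69.3 FPKM at day 3 and was at 343 ± 104 FPKM at day 7 (n = 6), 279 ± 64.3 FPKM at day 14 (n = 6) and 191 ± 26.8 FPKM at day 21 (n = 5). The lowest injured sample, at day 21 with 147 FPKM, was above the highest sample without injury with 143 FPKM. Its log2 fold changes of 1.61 ± 0.20, 1.46 ± 0.20 and 1.18 ± 0.20 at days 3, 7 and 14 were among the smaller ones of the members called, with a narrow spread between samples. At day 21 the log2 fold change was 0.66 ± 0.20 (limma, adjusted p = 0.067), which passed without day 7 replicate 4 (adjusted p = 0.0443).

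Tenascin-C, Tnc, an anti-adhesive glycoprotein of wounds and of the muscle-tendon border, had the lowest level of the members without injury, at 0.725, 0.665, 0.274, 0.199 and 0.237 FPKM, and 19 reads in its lowest sample. At day 3 it was at 14.0, 22.6, 15.2, 13.8 and 3.57 FPKM, the last of these in replicate 5. The log2 fold change was 3.23 ± 0.36 at day 3, and 3.61 without the pair of samples that stood apart. At day 7 the lowest, median and highest values were 1.27, 5.67 and 10.6 FPKM, the last of these in replicate 5, and at day 14 they were 1.30, 1.67 and 3.25 FPKM. The log2 fold changes were 2.08 ± 0.34 at day 7 and 1.01 ± 0.34 at day 14 (limma, adjusted p = 0.000142 and 0.036). The call at day 14 was lost without any of no injury replicates 3, 4 and 5 and day 14 replicates 1, 2, 4 and 5, with adjusted p from 0.052 to 0.0758. It was also lost with no filter, quantile normalization or FPKM rescaled to a common sum (0.085, 0.0816 and 0.0684). At day 21 it was at 0.785, 0.590, 1.18, 0.377 and 1.18 FPKM, which overlapped with the muscles without injury in 2 of 5 samples. Of its rise at day 3, 10.99% on the log2(FPKM + 1) scale remained at day 21, the smallest share among the members on this scale. Its means of 0.42 FPKM without injury and 0.82 FPKM at day 21 lay below the pseudocount of 1, which shrinks the day 21 difference. With voom its log2 fold changes were 4.97 at day 3 and 0.98 at day 21, so the share depends on the scale. Its rank among the members was not worked out with voom.

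Thbs1 and Thbs2 code for trimeric thrombospondins that restrain the growth of vessels, and Thbs1 also activates latent TGF-beta. Thbs1 was at 0.643, 1.11, 0.632, 0.669 and 1.02 FPKM without injury and at 8.65, 6.83, 8.09, 8.40 and 3.61 FPKM at day 3. The log2 fold change at day 3 was 2.12 ± 0.39 (limma, adjusted p = 0.000128). At day 7 its lowest, median and highest values were 0.951, 2.72 and 18.015 FPKM, the highest in replicate 5, and the lowest below the highest sample without injury. The log2 fold change at day 7 was 1.37 ± 0.37, and 0.96 without day 7 replicate 5 (limma, adjusted p = 0.00802 and 0.0153). At day 14 it was 0.96 ± 0.37 with an adjusted p of 0.0669 by limma, and with the same log2 fold change it passed without day 7 replicate 5 (adjusted p = 0.0114) and without day 7 replicate 6 (0.0435). It passed at day 14 without day 14 replicate 3 as well, with 1.10 (adjusted p = 0.0438).

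Thbs2 was at 0.899 ± 0.465 FPKM without injury (SD, n = 5) and at 8.23, 9.29, 10.6, 8.86 and 8.54 FPKM at day 3, the narrowest day 3 group of the members relative to its mean. It was at 8.73 ± 3.42 FPKM at day 7, 3.34 ± 1.55 FPKM at day 14 and 1.96 ± 0.659 FPKM at day 21. Its log2 fold changes of 2.44 ± 0.26, 2.28 ± 0.25 and 1.16 ± 0.25 passed at days 3, 7 and 14. At day 21 it was at 0.64 ± 0.26 (limma, adjusted p = 0.169), and 4 of 5 samples were above all samples without injury. Against Thbs1, with which it shares its trimeric form, the difference in log2 fold change was 0.91 at day 7 and did not pass (exact permutation test, two-sided, p = 0.0541, adjusted p = 0.146 over 35 tests).

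Scx (ENSMUSG00000034161, chromosome 15, 76457452 to 76459458, plus strand) was at 4.53, 5.99, 5.86, 2.67 and 2.55 FPKM without injury. At day 3 it was at 23.4, 30.1, 33.05, 37.3 and 11.9 FPKM, the last of these in replicate 5, and all 5 samples were above the muscles without injury. At day 7 it had a lowest value of 3.89, a median of 18.8 and a highest value of 28.8 FPKM, and 4 of 6 samples were above. At day 14 these values were 5.31, 13.3 and 16.6 FPKM, and at day 21 the samples were at 10.8, 10.97, 10.9, 9.02 and 5.45 FPKM, where 4 of 5 were above. The log2 fold changes were 2.37 ± 0.43, 1.501 ± 0.41 and 1.28 ± 0.41 at days 3, 7 and 14 (limma, adjusted p = 0.000106, 0.00808 and 0.0281). The call at day 14 was lost without no injury replicates 4 or 5 and without day 14 replicates 2 or 4, with adjusted p from 0.0507 to 0.076. It was also lost with no filter (0.0679) and with voom (0.0625). At day 21 the log2 fold change was 0.99 ± 0.43 (limma, adjusted p = 0.192). Scx lies within an intron of Bop1 on the other strand with 0 exon bases in common, so that unspliced reads of Bop1 could not be told apart from reads of Scx. Bop1, a ribosome assembly factor, was at 8.57 ± 1.91 FPKM without injury and 12.8 ± 4.12 FPKM at day 3, a smaller difference than that of Scx. The part of Bop1 in the values of Scx was not tested.

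Comp (ENSMUSG00000031849, chromosome 8, 70373558 to 70382066, plus strand) was the member called at all 4 time points. It was at 1.29, 2.06, 0.287, 0.630 and 0.898 FPKM without injury and at 2.89, 3.09, 2.82, 3.28 and 6.21 FPKM at day 3. At day 7 its lowest, median and highest values were 2.63, 4.04 and 11.7 FPKM, and at day 14 they were 1.95, 3.58 and 7.62 FPKM. At day 21 it was at 3.30, 2.73, 4.98, 2.58 and 4.71 FPKM, all above the muscles without injury. The log2 fold changes were 1.22 ± 0.31, 1.57 ± 0.29, 1.25 ± 0.29 and 1.23 ± 0.31 (limma, adjusted p = 0.00242, 0.000565, 0.00464 and 0.0262). From day 3 to day 21 it differed by 0.01 on the log2 scale, with a 95% interval of -0.62 to 0.64 (limma, adjusted p = 0.981). The call at day 21 was kept in 31 of 42 alternatives. It was lost with the own total of reads (adjusted p = 0.0702) and without any of no injury replicates 3, 4 and 5 and day 21 replicates 1, 3 and 5 (adjusted p from 0.0501 to 0.072), while the log2 fold change stayed between 1.08 and 1.25 without these samples. Comp had 10 reads in its lowest sample, the fewest of the members.

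Thbs4 and Tnmd did not pass by limma at any time point with the settings used here, though each did under some alternatives. Thbs4 (chromosome 13, 92751590 to 92794818, minus strand) had the second highest level without injury, at 48.4, 53.2, 37.5, 37.6 and 28.6 FPKM. At day 3 it was at 57.7, 74.7, 49.2, 28.98 and 97.2 FPKM and at day 21 at 42.9, 44.4, 70.6, 20.3 and 102.5 FPKM. At day 7 the lowest, median and highest values were 44.0, 67.0 and 136.7 FPKM. Both the lowest and the highest of the day 21 samples lay outside the control range. The log2 fold changes were 0.50, 0.80, 0.46 and 0.28 with SE of 0.37 to 0.38, and the one at day 7 had an adjusted p of 0.101 (limma) and an unadjusted p of 0.0152 (exact permutation test, two-sided). Thbs4 was called at day 7 with quantile normalization (1.10, adjusted p = 0.0378), only the 2 groups compared (0.80, adjusted p = 0.0478) and sample quality weights (0.86, adjusted p = 0.0401). It was called at days 3 and 7 with the own total of reads (1.15 and 1.34, adjusted p = 0.0171 and 0.00802), and also after rescaling FPKM to a common sum (1.30 and 1.51, adjusted p = 0.01 and 0.00467).

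Tnmd (chromosome X, 133850980 to 133865577, plus strand) was at 6.22, 12.4, 3.78, 5.22 and 2.37 FPKM without injury. At day 3 it was at 5.53, 3.71, 4.57 and 3.37 FPKM in 4 samples and at 27.9 FPKM in replicate 5. At day 21 it was at 9.77, 9.22, 16.1, 1.33 and 23.1 FPKM, which spans the control range at both ends. The log2 fold change was 0.23 ± 0.60 at day 3, and -0.26 ± 0.59 without the samples that stood apart (limma, adjusted p = 0.787 and 0.755). It was 1.05 ± 0.57, 1.04 ± 0.57 and 0.69 ± 0.60 at days 7, 14 and 21 (limma, adjusted p = 0.17, 0.197 and 0.559). The unadjusted p at day 7 was 0.039 by exact permutation test, two-sided. The day 7 difference was 1.52 and passed with the own total of reads (adjusted p = 0.0361), and 1.68 when each sample was brought to the same FPKM sum (adjusted p = 0.0204). The day 14 difference was 1.34 and passed with sample quality weights (adjusted p = 0.0346).

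Within groups, Thbs4, Tnmd and Comp were high or low in the same samples more than most pairs of members. After subtracting the group means on the log2 scale, Pearson's r over the 27 samples was 0.90 for Thbs4 and Tnmd (Spearman's rho = 0.89, permutation p = 1e-05 for each, adjusted p = 0.000113 over 45 pairs for r). It was 0.78 for Comp and Tnmd (rho = 0.73, permutation p = 0.00012 for rho) and 0.75 for Thbs4 and Comp (rho = 0.71, permutation p = 0.00026 for rho), each with a permutation p of 1e-05 for r, the smallest that 100000 permutations within groups can give. Without the 2 samples farthest from the median the 3 values of r were 0.87, 0.78 and 0.77, and without day 3 replicate 5 and day 7 replicate 5 they were 0.91, 0.77 and 0.73. For Scx and Tnmd r was 0.19 (rho = 0.24, permutation p = 0.291 and 0.219). It was 0.42 without the farthest 2 samples and 0.39 without day 3 replicate 5 and day 7 replicate 5.

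Fn1 was correlated with Postn, Thbs2 and Sparc. Within groups r was 0.83 for Fn1 and Postn (rho = 0.80, permutation p = 2e-05 for each), 0.79 for Fn1 and Thbs2 (rho = 0.80, permutation p = 1e-05 and 2e-05) and 0.77 for Fn1 and Sparc (rho = 0.81, permutation p = 6e-05 and 1e-05). Without the 2 samples farthest from the median of Fn1 these values of r were 0.77, 0.77 and 0.78. Between Sparc and Thbs2 r was 0.58 (rho = 0.60, permutation p = 0.01102 and 0.00249, and r = 0.55 without the farthest 2 samples). Tnc was correlated with Thbs2 (r = 0.71, rho = 0.77, permutation p = 2e-05 and 1e-05, and r = 0.72 without the farthest 2), with Thbs1 (r = 0.68, rho = 0.56, permutation p = 0.00156 and 0.00873, and r = 0.56) and with Scx (r = 0.66, rho = 0.58, permutation p = 0.00634 and 0.00751, and r = 0.48). Without day 3 replicate 5 and day 7 replicate 5, r of Tnc was 0.84 with Thbs2, 0.59 with Thbs1 and 0.60 with Scx. Fn1 and Comp had r = 0.58 (rho = 0.56, permutation p = 0.00766 and 0.00899, and r = 0.62 without the farthest 2). Of the 45 pairs of members, 15 had an adjusted p for r under 0.05, and r ranged from -0.06 to 0.90 with a median of 0.37. All points share the scaling and the depth of their library.

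**Figure D3:**
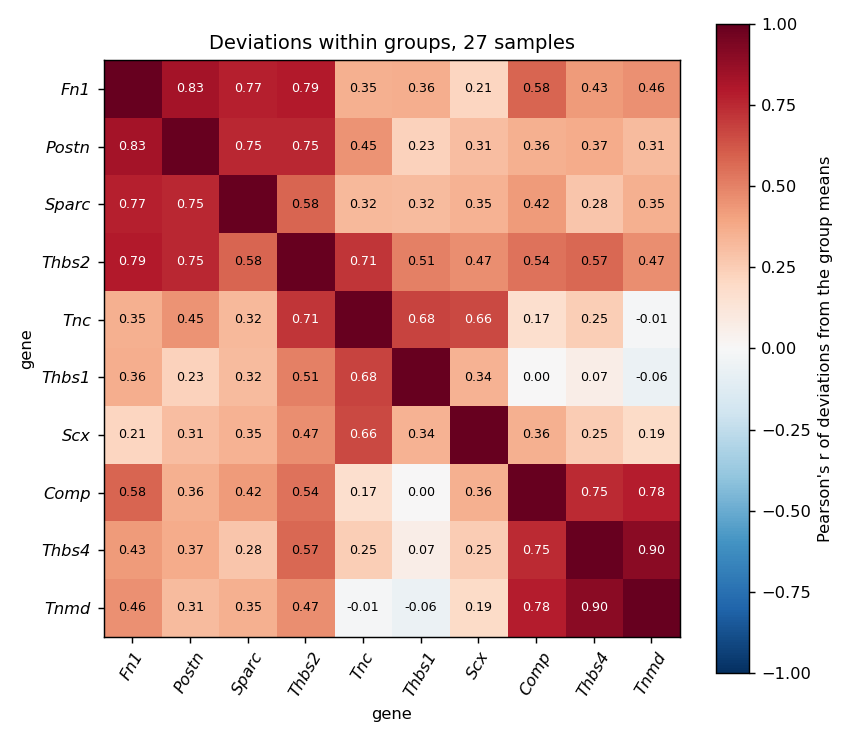
Pearson's r between the deviations of 2 members (rows and columns) from their group means on the log2(FPKM + 1) scale, over 27 samples, with the colour from -1 (blue) to 1 (red). The values among Comp, Thbs4 and Tnmd are 0.75 to 0.90 and those among Fn1, Postn, Sparc and Thbs2 are 0.58 to 0.83, while Tnc has 0.71 with Thbs2 and Fn1 has 0.58 with Comp.

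Promoters of 4 of these genes are shown because Thbs4 and Tnmd, and Postn and Sparc, were correlated within groups. RefSeq windows on GRCm38.p6 were at hand for 6 of the 10 members, and the 250 bases before the annotated start were searched on both strands for the E-box CANNTG, the form bound by basic helix-loop-helix factors such as Scx, and for GGGCGG (the form bound by Sp1), CATTCC (by TEAD factors) and CAGAC (by SMADs). In the sequences the E-boxes are in capitals. Thbs4 is at chr13:92794819-92795068 (minus strand), Tnmd at chrX:133850758-133851007 (plus), Postn at chr3:54360857-54361106 (plus) and Sparc at chr11:55420081-55420330 (minus). The RefSeq starts can differ from those of the genes measured. The Sparc gene of the expression table reaches to 55423183, so the window of Sparc lies inside that gene. The Tnmd gene of the expression table starts at 133850980, inside the window of Tnmd.
Thbs4: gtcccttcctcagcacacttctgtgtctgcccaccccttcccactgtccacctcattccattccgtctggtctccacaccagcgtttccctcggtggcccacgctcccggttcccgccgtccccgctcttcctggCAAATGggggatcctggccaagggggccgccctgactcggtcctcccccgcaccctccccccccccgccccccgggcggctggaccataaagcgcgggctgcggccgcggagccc
Tnmd: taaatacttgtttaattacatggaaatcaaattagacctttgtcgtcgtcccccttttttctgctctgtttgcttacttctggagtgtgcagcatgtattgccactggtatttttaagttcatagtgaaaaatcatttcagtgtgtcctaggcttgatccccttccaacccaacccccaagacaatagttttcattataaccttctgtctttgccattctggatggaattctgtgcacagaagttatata
Postn: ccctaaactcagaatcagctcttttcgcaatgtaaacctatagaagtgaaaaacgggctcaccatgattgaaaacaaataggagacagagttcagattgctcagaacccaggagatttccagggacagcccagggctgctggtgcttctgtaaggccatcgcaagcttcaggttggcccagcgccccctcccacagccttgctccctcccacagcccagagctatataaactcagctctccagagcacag
Sparc: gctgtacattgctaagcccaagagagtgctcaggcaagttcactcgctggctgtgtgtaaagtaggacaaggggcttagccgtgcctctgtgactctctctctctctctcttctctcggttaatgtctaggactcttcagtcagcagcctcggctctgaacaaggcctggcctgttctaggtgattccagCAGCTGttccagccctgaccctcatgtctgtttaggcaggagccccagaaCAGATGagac
Thbs4 and Tnmd, whose deviations were the most alike, had unlike windows. That of Thbs4 held 1 E-box, 3 matches to GGGCGG, 2 to CATTCC and 2 to CAGAC, with 70.8% G and C, whereas that of Tnmd held 0 of any of these, with 38.4% G and C. The window of Sparc held 2 E-boxes and 1 CAGAC, and the printed window of Postn 0 of each. A second window of Postn, at chr3:54359017-54359266 (plus), held 1 CAGAC and 0 of the others. The window of Thbs2 held 1 E-box and 2 CAGAC, and those of 2 starts of Tnc held 2 and 3 E-boxes, 1 GGGCGG each, and 1 and 0 CAGAC. The 2 windows of Tnc overlap, so the GGGCGG and 2 of the E-boxes are the same sites counted in both. Over all 32851 windows of the same length, 66.2% held an E-box, 32.7% GGGCGG, 12.6% CATTCC and 42.2% CAGAC. No CAGAC match in these windows overlapped with an E-box, and a missing match says only that these letters are not in the window.

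Between consecutive time points, Fn1 and Thbs2 fell from day 7 to day 14 by 1.34 and 1.12 on the log2 scale (limma, adjusted p = 0.0238 and 0.0376). Of all genes, 0.116% rose and 0.219% fell in this comparison. The call of Fn1 was lost without any of day 7 replicates 4 and 5 and day 14 replicates 3 and 6 (adjusted p from 0.0566 to 0.0746), and both calls were lost with the own total of reads (0.0741 and 0.0866). That of Thbs2 was lost without any of 11 samples (adjusted p from 0.0504 to 0.11), among them no injury replicate 4, day 3 replicate 3, day 7 replicates 1, 3, 4 and 5 and day 14 replicates 1, 3, 4, 5 and 6. Without day 7 replicate 6, Tnc and Postn fell as well (by 1.35 and 1.80, adjusted p = 0.025 for each).

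From day 3 to day 7, 0 members passed, with 2 lower at an unadjusted p under 0.05, where 15.7% of all genes had such a p in either direction. After adjustment 0% of all genes rose and 0.0478% fell. Tnc differed by -1.14 (limma, adjusted p = 0.0933) and fell by 1.52 without day 3 replicate 5 and by 1.33 without day 7 replicate 5 (adjusted p = 0.00814 and 0.0079). Thbs1 differed by -0.75 (limma, adjusted p = 0.33) and fell by 1.16 without day 7 replicate 5 (adjusted p = 0.00553). Without both samples, Tnc fell by 1.71 and Thbs1 by 1.35 (limma, adjusted p = 8.18e-05 and 0.00106). From day 14 to day 21, 0 members passed by limma or voom, with 3 lower at an unadjusted p under 0.05, where 6.21% of all genes had such a p in either direction. After adjustment 0% of all genes were called in either direction. From day 3 to day 21, Fn1, Tnc, Postn, Sparc, Thbs1, Thbs2 and Scx fell by 2.05, 2.87, 2.78, 0.94, 1.77, 1.80 and 1.38 on the log2 scale (limma, adjusted p from 2.56e-05 to 0.0195). Comp, Thbs4 and Tnmd did not pass (limma, adjusted p from 0.609 to 0.981). Between these 2 days, 2377 of the 14630 genes tested fell and 1351 rose by limma after adjustment.

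Members with related roles were compared within each sample, as the difference of their log2(FPKM + 1) values, in 5 pairs and 7 comparisons with exact permutation tests over samples. Of these 35 tests, 2 passed after adjustment. Fn1 minus Sparc was 1.74 higher at day 7 than without injury and Comp minus Thbs4 was 0.79 higher at day 14 than without injury (two-sided exact p = 0.00216 and adjusted p = 0.0379 for each). This p is the smallest that 5 against 6 samples allow, and leaving out any 1 sample of the compared groups other than no injury replicate 1 brought the adjusted p to 0.0505 to 0.0833. The own total of reads also ended both calls (adjusted p = 0.0694 and 0.0758), with differences of 1.64 and 0.59. Comp minus Thbs4 was 0.72, 0.77 and 0.94 higher at days 3, 7 and 21 (adjusted p = 0.111, 0.0631 and 0.0926).

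Tnmd minus Scx was 2.14 lower at day 3 than without injury with an adjusted p of 0.139 by exact permutation test, and 2.89 lower without day 3 replicate 5 (adjusted p = 0.0417). In that sample Tnmd was at 27.9 FPKM and Scx at 11.9 FPKM, the highest and the lowest value of their day 3 groups. The sum of the 15 tendon lineage genes was 146 FPKM in it and 72.6 to 98.8 FPKM in the other day 3 samples. A high sum did not always go with high Tnmd, since day 7 replicate 6 had a sum of 174 FPKM and Tnmd at 8.42 FPKM. The part of tendon tissue in these values was not tested. Tnc minus Postn was 1.79 lower at day 7 than without injury (exact p = 0.00866, adjusted p = 0.0606). It was 1.06 lower with a pseudocount of 0.1 (adjusted p = 0.139), and it passed at 1.56 with a pseudocount of 0.5 (adjusted p = 0.0473) and at 2.03 without no injury replicate 1 (adjusted p = 0.0476).

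**Figure D4:**
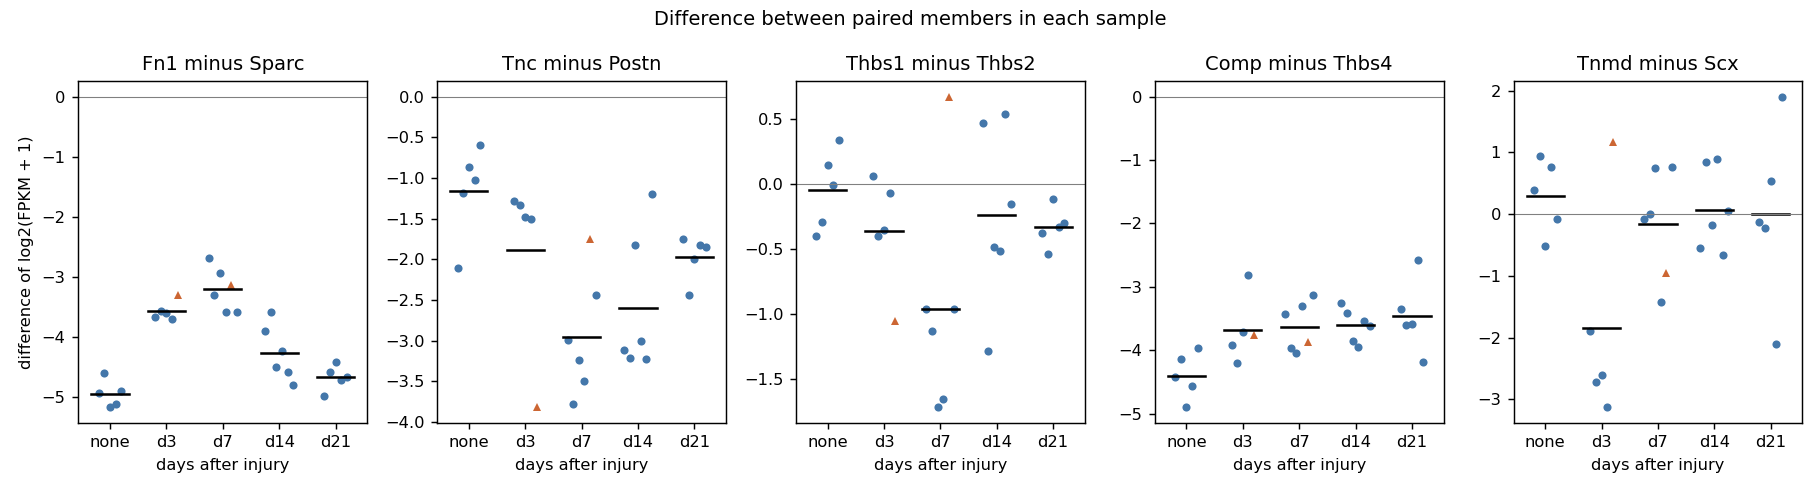
Difference of log2(FPKM + 1) between 2 members in each sample (y axis, with a different range in each panel) by group (x axis: no injury, then days 3, 7, 14 and 21), with bars for the group means and triangles for day 3 replicate 5 and day 7 replicate 5. Fn1 minus Sparc goes from a mean of -4.95 without injury to -3.21 at day 7, and Tnmd minus Scx has a mean of -1.84 at day 3 with the triangle above the other 4 samples.

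The genes outside the 10 with the most similar profiles were found by the highest Pearson's r over the 27 samples, and are given as a description. For log2(FPKM + 1), Col1a1, the main fibrillar collagen chain, was first for Fn1 (r = 0.98), Postn (0.98) and Sparc (0.97). Next came the matricellular Fstl1 for Fn1 (0.97), Col16a1 for Postn (0.98) and Col6a1 for Sparc (0.97). For the deviations from the group means, the first were Col1a1 for Fn1 (0.93), Col16a1 for Postn (0.92) and Col6a1 for Sparc (0.91), with Col1a2 next for Fn1 and Postn (0.91 and 0.92) and Col1a1 for Sparc (0.88). Tnc was nearest to Lyz2, a lysozyme of macrophages (0.96), and Wisp1 (0.96), and in its deviations to Lox, which crosslinks collagen (0.84), and Srpx2 (0.84). Thbs1 was nearest to Myo5a (0.96) and Elf4 (0.95), and in its deviations to Zfp36l2 (0.91) and Myo5a (0.90). Thbs2 was nearest to Col16a1 and Sulf2 (0.96 each), and in its deviations to Col12a1 (0.85) and Sulf2 (0.84).

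Among the tendon members, Thbs4 was nearest to Col11a1 (0.84) and keratocan, Kera (0.71), and in its deviations to Col11a1 (0.82) and fibromodulin, Fmod (0.77). Tnmd was nearest to Kera (0.85) and Col11a1 (0.81), and in its deviations to Kera (0.85) and Cilp2 (0.84). Comp was nearest to Ssc5d (0.82) and 1500015O10Rik (0.80), and in its deviations to Col11a1 (0.83) and Fmod (0.80). Scx was nearest to Cd82 (0.94) and Tnnt2, a troponin of embryonic and cardiac muscle (0.92), and in its deviations to Sdc4 and the transcription factor Runx1 (0.88 each).

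Marker sums moved with some members within groups, tested as 50 relations by permutation within groups with adjustment over the 50. The deviations of Fn1, Postn and Sparc followed the fibroblast marker sum (r = 0.91, 0.91 and 0.86, rho = 0.89, 0.86 and 0.87, permutation p = 1e-05 for each, adjusted p = 8.33e-05 for each r). Without the 2 samples farthest from the median these values of r were 0.89, 0.86 and 0.82. Thbs2 followed this sum as well (r = 0.73, rho = 0.65, permutation p = 5e-05 and 0.00096, adjusted p = 0.000313 for r, and r = 0.63 without the farthest 2). The sum was mainly collagen, with day 3 medians of 294, 119 and 163 FPKM for Col1a1, Col1a2 and Col3a1. Those of Dcn and Pdgfra were 30.1 and 2.62 FPKM. These relations are therefore not separate from those with the collagens given above. Thbs1 and Tnc followed the macrophage marker sum (r = 0.84 and 0.75, rho = 0.58 and 0.54, permutation p = 0.00068 and 0.00218 for r and 0.0099 and 0.01716 for rho, adjusted p = 0.00309 and 0.00779 for r). For this pair r fell to 0.58 and 0.56 without the 2 samples farthest from the median and was 0.67 and 0.66 without day 3 replicate 5 and day 7 replicate 5. Tnmd followed Fmod and Kera (r = 0.81 and 0.85, rho = 0.79 and 0.82, permutation p = 1e-05 for each r and 3e-05 and 2e-05 for rho), with 0.82 for each of these without the farthest 2 samples. Thbs4 followed them with r = 0.77 and 0.75 (rho = 0.73 and 0.70) and Comp with r = 0.80 and 0.73 (rho = 0.77 and 0.66). Kera was also the gene nearest to Tnmd of all tested, and Fmod was among the 2 nearest to Thbs4 and Comp. The p-values take no account of this choice from the same data. For Scx with Fmod and Kera the values were lower (r = 0.12 and 0.04, rho = 0.07 and 0.05, permutation p = 0.567 and 0.838 for r and 0.746 and 0.831 for rho, and r = 0.12 for each without the farthest 2). Thbs4, Comp and Tnmd also followed the sum of the 15 tendon lineage genes, which include Fmod and Kera (r = 0.55, 0.63 and 0.64, permutation p = 0.00595, 0.00088 and 0.00156, adjusted p = 0.0198, 0.00367 and 0.006). Without the farthest 2 samples these values of r were 0.46, 0.62 and 0.50. Much of this sum came from few genes, with day 3 medians of 26.9 FPKM for Tppp3 and 22.8 FPKM for Cilp in a median sum of 86.2 FPKM. It also holds Col11a1 and Cilp2, which were among the genes nearest to these members, so these relations are not separate from those given above. The part of fibroblasts, macrophages or tendon cells in the changes of the members was not tested. The cartilage markers summed to at most 2.05 FPKM in any sample, and Matn1 was at 0 in all samples of 4 of the 5 groups.

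Of 24 further matricellular genes, 20 were tested, and 12 rose and 1 fell at day 3, 11 and 1 at day 7, 6 and 0 at day 14 and 2 and 0 at day 21. Over all genes tested, 23.4% rose and 19.8% fell at day 3, 15% and 14.4% at day 7, 9.02% and 11.3% at day 14, and 1.74% and 1.69% at day 21. At an unadjusted p under 0.05, 0 of the 20 were lower at days 14 and 21, where 34.7% and 19.8% of all genes had such a p in either direction. Their median log2 fold change was 0.86, 0.86, 0.53 and 0.20. At day 3 the largest rises were those of osteopontin, Spp1, by 6.31 ± 0.86, and of Tgfbi by 2.73 ± 0.37, and vitronectin, Vtn, an adhesive plasma protein, fell by 1.48. At day 21 the 2 that rose were Thbs3, another pentameric thrombospondin (1.15 ± 0.27, limma, adjusted p = 0.0195), and Fstl1 (1.12 ± 0.27, adjusted p = 0.0193). Tnr, Spock1, Spock3 and Wisp3 were below the filter on low values.

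Of 15 further genes of the tendon lineage, 14 were tested, and 5, 6, 3 and 1 rose at days 3, 7, 14 and 21, with 0 lower by limma and 1, 1, 0 and 1 lower at an unadjusted p under 0.05. Over all genes tested, 23.4%, 15%, 9.02% and 1.74% rose and 19.8%, 14.4%, 11.3% and 1.69% fell by limma. An unadjusted p under 0.05 in either direction was found for 49.6%, 41.7%, 34.7% and 19.8%. The median log2 fold change was 0.10, 0.61, 0.29 and 0.35. Cilp, which codes for a cartilage intermediate layer protein, rose by 2.26 ± 0.43 at day 3 and 2.39 ± 0.43 at day 21 (limma, adjusted p = 0.000196 and 0.00373), and Col14a1 by 1.90 ± 0.32 at day 3. The transcription factor Mkx was below the filter on low values. Kera and Fmod, which followed Tnmd, Thbs4 and Comp within groups, were not called at any time point.

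Of 18 receptors of the members, 16 were tested, and 10 rose and 3 fell at day 3, 9 and 3 at day 7, 4 and 1 at day 14, and 0 and 1 at day 21, where 5 were higher and 2 lower at an unadjusted p under 0.05 (19.8% of all genes in either direction). Over all genes tested, 23.4% rose and 19.8% fell by limma at day 3, 15% and 14.4% at day 7, 9.02% and 11.3% at day 14, and 1.74% and 1.69% at day 21. The largest rises at day 3 were those of the scavenger receptor Stab1, which takes up SPARC (2.30 ± 0.42), and of Itga5, the fibronectin receptor chain (1.79 ± 0.26). Cd36, a receptor of Thbs1 and a fatty acid transporter, fell by 0.76, 0.99, 0.80 and 0.91 at the 4 time points (limma, adjusted p = 0.00129, 0.000284, 0.00278 and 0.00594). Itga8 and Itgb8 were below the filter on low values.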

How the data were processed

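Poly-A selected, non-directional RNA libraries of 27 TA muscles were sequenced. The authors aligned reads with Hisat 2.0.5, counted them with featureCounts 1.5.0-p3 and deposited FPKM for 54532 genes. How FPKM was normalized between samples is not given in the sources used here. FPKM times gene length gave whole reads for 100% of values within 0.05 of a read, with denominators of 0.747 to 1.48 times the sample's total. Of the genes, 54495 were found in GENCODE M21 (GRCm38), 98.3% at the same coordinates.

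Groups were read from sample titles. The 14630 genes that reached 0.5 FPKM in 5 or more samples entered the fit as log2(FPKM + 1), so fold changes of low genes are understated. The fit was limma 3.58.1 in R 4.3.3 with all samples, a mean per group and a variance trend, two-sided, with the Benjamini-Hochberg method applied to each comparison, and it was tested on simulated data. Exact permutation tests (Python 3.11.15, numpy 2.4.6, scipy 1.17.1) served for member pairs and single members (the latter unadjusted and not recomputed under the alternatives) and 100000 permutations within groups for correlations. Figures were drawn with matplotlib 3.10.9. Count tests were not used, since the unit is FPKM, and voom on the recovered reads served as an alternative.

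The members and gene lists were chosen with earlier results of these data known. The genes named are the 10 members, the 2 nearest genes of each by both measures of likeness, and of each list the genes called at day 21, the 2 largest changes at days 3 and 21 and those below the filter. Vtn, Cd36 at other days, Fmod and Kera as partners of the members, and Bop1 were named after their values were seen. The alternatives were pseudocounts of 0.1 and 0.5, no filter, an FPKM minimum of 1, other scalings, no variance trend, voom, only the groups compared, replicate blocks, each sample left out and, added after seeing the data, sample quality weights and both samples that stood apart left out. The limma list counts were not recomputed under the alternatives. Whether replicate numbers pair the samples was not settled. Protein sequences were not used here.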

Additional observations from a re-analysis of the deposited data

Results flagged for a closer look

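In 6 of the 50 groups of member values (10 genes in 5 groups), the highest or lowest sample stood apart from the others by Dixon's test at 95%, where chance alone gives about 1 in 20 groups, or 2.5 of 50. Of these, 4 were in day 3 replicate 5, which had the lowest Tnc (3.57 FPKM) and Thbs1 (3.61 FPKM) and the highest Comp (6.21 FPKM) and Tnmd (27.9 FPKM) of the day 3 samples. The other two were Tnc in day 14 replicate 2, the highest of its group at 3.25 FPKM, and Scx in day 21 replicate 5, the lowest of its group at 5.45 FPKM. The sum of the macrophage markers in day 3 replicate 5 was 52.1 FPKM against 139 to 330 FPKM in the other day 3 samples, and that of the tendon lineage genes was 146 FPKM against 72.6 to 98.8 FPKM. In day 7 replicate 6 the sum of the tendon lineage genes was 174 FPKM, with Tnmd at 8.42 FPKM. The part of these cells in the values was not tested.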

How the results depend on the processing

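Comp, Tnc, Tnmd and Thbs2 had the fewest reads of the members, with 10, 19, 27 and 39 in their lowest samples. The effect of depth on their results was not tested. The split of all genes into higher and lower depends on the FPKM scaling. The cause of the changes below was not tested. Of the fold changes under 42 alternatives, 2810 kept direction and side of the threshold, 48 newly passed, 54 no longer passed and 28 reversed. Of the pair differences these counts were 499, 28, 26 and 22, and of the counts of members called 255 stayed within 1.5 times and 39 did not.

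The count of members called at day 21 was 1, and it was 2 with a pseudocount of 0.1, 0 with no filter, quantile normalization, FPKM rescaled to a common sum or the own total of reads, 4 with only the 2 groups compared, 6 with sample quality weights and 0 to 2 with samples left out in turn. From day 3 to day 7 it was 0, and 2 with sample quality weights or without both samples that stood apart, and 0 to 2 with samples left out in turn. From day 7 to day 14 it was 2, and 1 with a pseudocount of 0.1 or 0.5 or without both samples that stood apart, 0 with no filter, FPKM rescaled to a common sum, the own total of reads or only the 2 groups compared, and 0 to 4 with samples left out in turn. The counts of all genes moved as well. With sample quality weights 1196 genes rose and 1275 fell at day 21, and 414 and 1478 from day 3 to day 7. With only the 2 groups compared these were 757 and 720 at day 21, and 5 and 0 from day 7 to day 14. With the settings used here they were 255 and 247 at day 21. They were 0 and 7 from day 3 to day 7, and 17 and 32 from day 7 to day 14. With FPKM rescaled to a common sum 6868 genes rose and 322 fell at day 3, and with quantile normalization 2774 and 3734. Thbs1 at day 7 no longer passed with only the 2 groups compared (adjusted p = 0.0522), and Comp at day 21 with no filter, quantile normalization, a common sum or voom (0.0636, 0.0605, 0.16 and 0.0991).

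The replicate number or letter as a block gave 4 and 5 members called at day 21, and for Postn from day 3 to day 7 it gave 0.27 and 0.19 in place of -0.08. Of all genes, 390 rose and 405 fell at day 21 with the number as a block, and 558 and 675 with the letter, against 255 and 247 without a block. Over 51 pairs of samples with the same number, the correlation of their deviations was -0.52 to 0.57 with a median of -0.003, and 15 were over 0.1. Pairs with different numbers were not set beside them, so these values do not settle whether the numbers pair the samples.

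These differences, none of which passed as reported, reversed. Tnmd at day 3 (0.23) was -0.10 with quality weights and -0.26 to 0.51 with samples left out, which includes -0.26 without the 2 samples that stood apart. Postn from day 3 to day 7 was 0.022 with quantile normalization, 0.40 with quality weights, 0.075 without both samples that stood apart and -0.30 to 0.30 with samples left out. Sparc in this comparison was 0.031 with quality weights and Thbs2 -0.27 to 0.096 with samples left out. From day 7 to day 14, Tnmd was 0.20 with quality weights and -0.27 to 0.32 with samples left out, and Thbs1 was -0.66 to 0.0011 with samples left out and 0.0011 without both samples that stood apart. From day 14 to day 21, Comp was 0.014 with quantile normalization, 0.022 with voom and -0.16 to 0.15 with samples left out, where Thbs4 was -0.44 to 0.13 and Tnmd -0.67 to 0.17.

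Among the pair differences, Comp minus Thbs4 from day 7 to day 14 was -0.050 and -0.013 with pseudocounts of 0.1 and 0.5, -0.027 without both samples that stood apart and -0.062 to 0.12 with samples left out. Tnc minus Postn at day 3 was 0.16 with a pseudocount of 0.1. With samples left out, Thbs1 minus Thbs2 was -0.35 to 0.015 at day 14 and -0.30 to 0.060 from day 14 to day 21, and Comp minus Thbs4 was -0.079 to 0.27 from day 3 to day 7 and -0.072 to 0.33 from day 14 to day 21. Tnmd minus Scx was -0.78 to 0.22 at day 21, -0.033 to 0.40 from day 7 to day 14 and -0.55 to 0.46 from day 14 to day 21.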
